A study of Homo sapiens with 9 samples.

Results

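Matrix metalloproteinases (MMPs) and their tissue inhibitors (TIMPs) are described here as 10 genes. They were chosen by name, with earlier results of these data known: MMP1, MMP2, MMP7, MMP9, MMP10, MMP14, MMP15, TIMP1, TIMP2 and TIMP3. All 10 had a row among the 61487 genes of the count table, and 9 of them were among the 14630 genes with enough counts to test, MMP9 being the exception. The RNA came from OVCAR4, an established human cell line labelled as high-grade serous ovarian cancer, in 3 groups of 3 libraries. Naive cells had not been made resistant and received DMSO, the solvent. Pt-resistant cells are the same line after continuous exposure to cisplatin, and also received DMSO. PRMT5i-treated cells are Pt-resistant cells given 5 µM EPZ015666, an inhibitor of the arginine methyltransferase PRMT5, for 5 days. All libraries carry the label WT, the naive line was not treated with the inhibitor, and the replicates were wells of culture plates, so p-values speak only of variation from well to well, some of which may be technical. Log2 fold changes are given ± SE throughout.

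MMPs are zinc-dependent enzymes that cut proteins of the extracellular matrix and of the cell surface, and they are made as inactive proenzymes that lose a propeptide on activation. Most are secreted, while the membrane-type enzymes, MMP14 and MMP15 among them, stay anchored in the cell membrane. TIMPs bind the active site of MMPs and block it, and TIMP2 also takes part, together with MMP14, in the activation of MMP2 at the cell surface. In ovarian cancer these genes are studied for their part in invasion of the peritoneal lining, where tumour cells and the surrounding stroma can both make them. The counts here are of mRNA and do not measure enzyme activity.

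The sequence before the start of the gene was held in RefSeq's promoter table (GRCh38.p14) for 6 members, namely MMP7, MMP10, MMP14, MMP15, TIMP1 and TIMP3. Of these, 4 are printed as the 250 bases before the start, 5′ to 3′ on the gene's own strand, because MMP7 and MMP10 share a layout near the start but differed in their values under the inhibitor, while the membrane-type genes MMP14 and MMP15 have another layout. Capitals mark matches to 3 motifs, which did not overlap in these 4 windows. The AP-1 motif was searched as TGANTCA on both strands. For the TATA box the letters were TATAAA, again on either strand. For the GC box they were GGGCGG, which appears as its reverse complement where it lies on the other strand. MMP7 lies on the minus strand at chr11:102530748-102530997.
MMP7: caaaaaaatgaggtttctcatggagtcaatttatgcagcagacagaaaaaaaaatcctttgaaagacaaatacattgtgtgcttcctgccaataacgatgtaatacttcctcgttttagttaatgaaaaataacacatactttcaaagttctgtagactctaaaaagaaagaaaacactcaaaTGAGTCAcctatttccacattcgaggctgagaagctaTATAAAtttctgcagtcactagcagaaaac
MMP10 lies on the minus strand at chr11:102780629-102780878.
MMP10: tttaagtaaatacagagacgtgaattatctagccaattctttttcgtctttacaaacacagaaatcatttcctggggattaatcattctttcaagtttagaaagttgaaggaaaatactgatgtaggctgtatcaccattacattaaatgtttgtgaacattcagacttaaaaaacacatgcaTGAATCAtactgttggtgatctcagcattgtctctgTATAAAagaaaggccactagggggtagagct
MMP14 lies on the plus strand at chr14:22836335-22836584.
MMP14: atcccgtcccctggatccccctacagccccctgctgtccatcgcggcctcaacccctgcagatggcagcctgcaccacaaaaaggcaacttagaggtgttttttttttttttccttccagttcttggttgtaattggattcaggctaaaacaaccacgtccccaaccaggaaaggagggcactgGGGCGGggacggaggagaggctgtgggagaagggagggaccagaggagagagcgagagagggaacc
MMP15 lies on the plus strand at chr16:58025504-58025753.
MMP15: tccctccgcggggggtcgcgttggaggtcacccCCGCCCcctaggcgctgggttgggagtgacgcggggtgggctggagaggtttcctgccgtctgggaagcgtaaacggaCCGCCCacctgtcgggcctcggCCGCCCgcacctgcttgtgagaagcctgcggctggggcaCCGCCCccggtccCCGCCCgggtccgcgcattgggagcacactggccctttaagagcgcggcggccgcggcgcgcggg

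The AP-1 letters began 67 bases before the start in both MMP7 and MMP10, and the TATA letters began 30 and 31 bases before it. These letters were absent from the same window of MMP14, MMP15, TIMP1 and TIMP3, which held 1, 5, 2 and 5 GC boxes. Over all 35116 promoters of the table, 6.57% held the AP-1 letters in these 250 bases, 10.7% the TATA letters and 42.6% a GC box. The share of G and C was 33.6% for MMP7 and 34.4% for MMP10, against 56.8% for MMP14, 74.8% for MMP15 and a median of 58.0% over all promoters. A match of letters is a description of the sequence and not of factor binding. Any part of this layout in the values under the inhibitor was not tested.

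**Figure D1:**
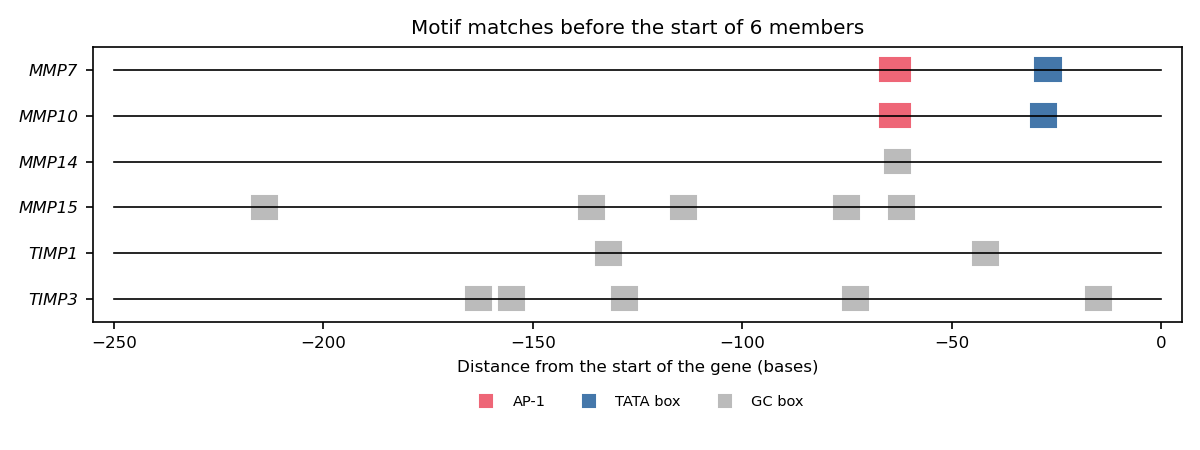
Position of motif letters in the 250 bases before the start of 6 members, with the distance from the start in bases on the x axis and 1 line per gene. Boxes are matches on either strand. MMP7 and MMP10 hold an AP-1 match that begins 67 bases before the start and a TATA match near it, and the other 4 hold GC boxes only. The central base of the AP-1 match is G in MMP7 and A in MMP10.

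Library totals lay between 14320929 and 19114811 counts. Of 8 markers of serous ovarian epithelium, 7 were found above 1 CPM in at least 1 group, and WT1 had group means of 0.22 to 0.32 CPM. CPM are counts scaled to the library total with TMM factors. The epithelial markers summed to 3777 to 4031 CPM in naive, 3707 to 3828 CPM in Pt-resistant and 3079 to 3120 CPM in PRMT5i-treated libraries. KRT7 was the largest part of this sum, with means of 1929, 2333 and 1638 CPM in that order of groups. Of 7 epithelial markers tested, 1 was higher and 5 lower in Pt-resistant cells, and 3 were higher and 3 lower with the inhibitor. Markers of other cell types moved between groups too. Those of immune cells and fibroblasts did so at low levels and those of endothelium at higher summed levels. The summed level of 6 immune markers ran over 1.42 to 2.14 CPM in naive libraries, 0.420 to 0.675 CPM in Pt-resistant ones and 4.76 to 6.34 CPM in PRMT5i-treated ones, and 3 of the 3 tested were higher with the inhibitor (CD3E, CD68 and MS4A1 had means under 1 CPM in every group). That of 6 fibroblast markers was 5.97 to 8.80, 4.38 to 4.98 and 10.5 to 14.3 CPM in the same order, with means of PDGFRA, PDGFRB, DCN, LUM and COL1A2 under 1 CPM in every group and 1 of 2 tested higher with the inhibitor. That of 4 endothelial markers was 137 to 157, 123 to 130 and 85.0 to 99.5 CPM, with 2 of 4 lower with the inhibitor. PECAM1 had means of 95.4, 57.4 and 43.7 CPM, and CDH5 had means of 48.4, 67.9 and 46.7 CPM. Between Pt-resistant and naive cells CDH5 was called higher and PECAM1 lower. VWF and KDR had group means of 0.714 to 2.65 CPM. The share of mitochondrially encoded mRNA was 5.97% to 7.82% in naive, 4.45% to 5.19% in Pt-resistant and 6.26% to 8.31% in PRMT5i-treated libraries. The part of these markers and shares in the results below was not tested. In bulk RNA, fewer cells that make a transcript and less of it per cell cannot be told apart.

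Levels of different genes were compared per kilobase of merged exons (GENCODE 29). MMP7 is a small secreted enzyme of epithelial cells, also called matrilysin. In naive cells it stood first among the MMP members, to which this order is limited, at 36.0 ± 7.5 CPM per kb (SD, n = 3). It was followed by MMP15 at 3.56 ± 0.12 CPM per kb and by MMP10 and MMP14 at 1.64 ± 0.50 and 1.24 ± 0.13 CPM per kb, whose ranges over libraries overlapped. MMP2 stood at 0.680 ± 0.072 CPM per kb, and MMP1 and MMP9, at 0.233 ± 0.10 and 0.143 ± 0.034 CPM per kb, overlapped at the bottom. In Pt-resistant cells MMP2 took the second place with 14.6 ± 0.21 CPM per kb, below MMP7 at 35.2 ± 5.6, while MMP15 moved down to the fifth place at 1.09 ± 0.18 CPM per kb. With the inhibitor the order was MMP7, MMP2, MMP14, MMP15, MMP10, MMP1 and MMP9, with no overlap between neighbours, from 193 ± 30 CPM per kb for MMP7 to 0.037 ± 0.044 CPM per kb for MMP9. Among the inhibitors TIMP2 stood above TIMP1 and TIMP1 above TIMP3 in naive and Pt-resistant cells, without overlap. In PRMT5i-treated cells TIMP1, at 113 ± 1.2 CPM per kb, and TIMP2, at 105 ± 7.9 CPM per kb, overlapped, and TIMP3 stood at 4.63 ± 0.53 CPM per kb.

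**Figure D2:**
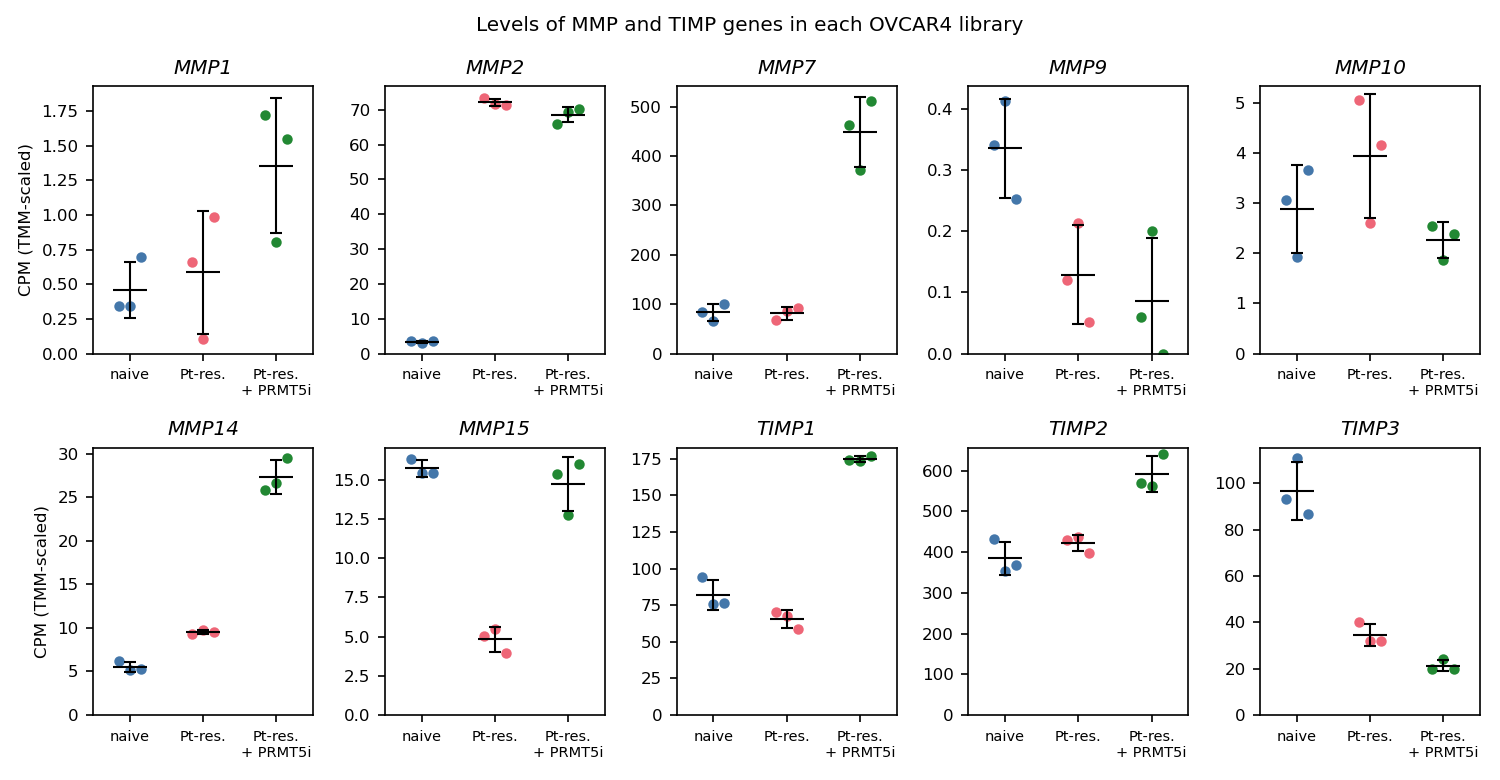
TMM-scaled CPM of the 10 genes in each library, with the 3 groups on the x axis. Points are libraries, and the bar and whiskers are the mean and SD (n = 3). MMP2 lies at 2.96 to 3.64 CPM in naive libraries and above 66 CPM in all others, while MMP7 lies at 66.1 to 101 CPM in both DMSO groups and at 372 to 511 CPM with the inhibitor.

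Pt-resistant cells were first set against naive cells, to see which members differ once resistance to platinum has been acquired. MMP2, a secreted gelatinase, was the member that differed most, 21.4-fold higher in Pt-resistant cells. MMP14 rose too, while MMP15 and TIMP3, an inhibitor that stays bound to the matrix, fell about 3-fold each, and TIMP1, a secreted inhibitor, fell by a smaller step. MMP7 and TIMP2, the members of each family with the highest level, did not pass the test. In all, 2 members rose and 3 fell of 9 tested, or 55.6%, where 59.1% of all 14630 genes tested were called (29.8% higher and 29.4% lower) at an adjusted p under 0.05 in edgeR, so the share of members called was near that of all genes. At a change of at least 2-fold, 1 member was higher and 2 were lower, where 6.73% of all genes were higher and 9.13% lower (15.9% in all). The libraries of the groups did not overlap for 5 of 9 members and for 62.5% of all genes tested.

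MMP2 read 3.64, 2.96 and 3.47 CPM in the naive libraries, and 73.3, 71.8 and 71.4 CPM in the Pt-resistant libraries. The Pt-resistant libraries lay within 2 CPM of each other and far above all naive ones, and the log2 fold change was 4.42 ± 0.11 (adjusted p = 1.48e-19). MMP14, the membrane-type enzyme that activates MMP2, read 6.19, 5.16 and 5.29 CPM in naive and 9.32, 9.80 and 9.51 CPM in Pt-resistant libraries. The groups did not overlap, and MMP14 rose by 0.78 ± 0.13 log2 units (adjusted p = 1.37e-05). MMP15, the second membrane-type enzyme among the members, read 16.3, 15.4 and 15.4 CPM in naive and 5.05, 5.48 and 3.95 CPM in Pt-resistant libraries. It was lower in every Pt-resistant library and changed by -1.71 ± 0.14 log2 units (adjusted p = 1.98e-10).

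MMP7 read 84.4, 66.1 and 101 CPM in naive and 67.3, 85.4 and 92.5 CPM in Pt-resistant libraries. The ranges overlapped almost wholly, with a log2 fold change of -0.03 ± 0.13 (adjusted p = 0.835). MMP10, a stromelysin, read 3.07, 1.92 and 3.65 CPM in naive and 5.05, 2.61 and 4.16 CPM in Pt-resistant libraries, which overlapped, at a log2 fold change of 0.43 ± 0.24 (adjusted p = 0.133, and 0.0218 without Pt-resistant replicate 2). MMP1, the interstitial collagenase, had 6, 5 and 11 counts in naive and 11, 2 and 19 counts in Pt-resistant libraries, and a difference was not detectable at this depth. MMP9, the other gelatinase, was too low to test, with 16 counts over the naive libraries and 7 over the Pt-resistant ones. Its ratio of Pt-resistant to naive cells was 0.384, with an exact 95% counting interval of 0.134 to 0.987 that leaves out the spread between wells. The 2 gelatinases thus stood far apart in Pt-resistant cells, MMP2 at 72.2 ± 1.0 CPM and MMP9 at 0.128 ± 0.081 CPM.

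Among the inhibitors, TIMP3 read 93.2, 111 and 86.7 CPM in naive and 40.2, 31.9 and 31.9 CPM in Pt-resistant libraries. No Pt-resistant library reached the lowest naive one, and the log2 fold change was -1.49 ± 0.11 (adjusted p = 2.62e-11). TIMP1 read 94.1, 76.2 and 76.3 CPM in naive and 70.1, 67.9 and 58.5 CPM in Pt-resistant libraries. The groups lay close without overlapping, and the log2 fold change was -0.33 ± 0.09 (adjusted p = 0.00299). TIMP2 read 431, 354 and 368 CPM in naive and 431, 437 and 399 CPM in Pt-resistant libraries. These overlapped, with a log2 fold change of 0.13 ± 0.08 (adjusted p = 0.175, and 0.0334 without naive replicate 1).

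Within Pt-resistant cells, EPZ015666 was set against DMSO to see which members respond to the PRMT5 inhibitor. Under the inhibitor MMP7 rose 5.49-fold, MMP15 3.06-fold, MMP14 2.86-fold, TIMP1 2.67-fold and TIMP2 1.40-fold, and MMP1 rose from a very low level. TIMP3 and MMP10 fell, while MMP2, which differed most between Pt-resistant and naive cells, did not pass the test. In all, 6 members rose and 2 fell of 9 tested, or 88.9%, where 62.4% of all 14630 genes were called (31.9% higher and 30.5% lower). The calls of MMP1 and MMP10, which are part of this share, did not hold under every alternative, as given below. At a change of at least 2-fold, 5 members were higher and none was lower, where 11.4% of all genes were higher and 6.51% lower (17.9% in all). The median log2 fold change of the 9 members was 1.22, beside 0.01 over all genes tested. That median is the value of MMP1 itself, which rested on few counts and ran from 0.71 to 1.87 over the alternatives. Pt-resistant libraries under DMSO also served as the upper arm of the comparison with naive cells, so the values of both comparisons rest in part on the same libraries.

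MMP7 read 463, 372 and 511 CPM in the PRMT5i-treated libraries, against 67.3 to 92.5 CPM under DMSO. Every treated library was at least 4 times the highest DMSO library, and the log2 fold change was 2.46 ± 0.13 (adjusted p = 2.13e-13). MMP10 read 2.55, 1.87 and 2.38 CPM with the inhibitor, just below the DMSO libraries at 2.61 to 5.05 CPM. It fell by 0.78 ± 0.25 log2 units (adjusted p = 0.00976), a call that was lost without Pt-resistant replicate 1 (log2 fold change -0.57, adjusted p = 0.0704).

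MMP14 read 25.9, 26.6 and 29.5 CPM with the inhibitor and 9.32 to 9.80 CPM under DMSO. MMP14 was thus higher in all treated libraries, by 1.52 ± 0.11 log2 units (adjusted p = 2.44e-11). MMP15 read 15.3, 12.8 and 16.02 CPM with the inhibitor and 3.95 to 5.48 CPM under DMSO. The groups were well apart, and the log2 fold change was 1.61 ± 0.14 (adjusted p = 5.23e-10). MMP2 read 66.1, 69.4 and 70.2 CPM with the inhibitor and 71.4 to 73.3 CPM under DMSO. Although these ranges did not overlap, as was so for 66.5% of all genes tested, the log2 fold change was -0.07 ± 0.08 (adjusted p = 0.416).

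MMP1 had 29, 12 and 26 counts in the treated libraries against 11, 2 and 19 under DMSO, or 1.36 ± 0.49 against 0.585 ± 0.45 CPM (SD, n = 3). The groups overlapped, and the log2 fold change of 1.22 ± 0.45 (adjusted p = 0.0214) rested on few counts. The call was lost with DESeq2 (adjusted p = 0.0848), without Pt-resistant replicate 2 (log2 fold change 0.71, adjusted p = 0.134), and without PRMT5i-treated replicate 1 or 3 (adjusted p = 0.1004 and 0.0734). Without Pt-resistant replicate 3 the log2 fold change was 1.87. Over its alternatives the adjusted p of MMP1 ran from 0.00419 to 0.134. MMP9 had 4 counts over the treated libraries and 7 under DMSO. The ratio was 0.642 (counting interval 0.138 to 2.53), and a difference was not detectable at this depth. Exons of MMP1 overlap those of the pseudogene WTAPP1 on the opposite strand, which had 138 counts over the 9 libraries, and exons of MMP9 overlap SLC12A5-AS1, which had 172. No source used here gives the strand that was counted, so both are uncertain. Exons of TIMP2 overlap CEP295NL on the same strand and AC022966.1 on the opposite one, which had 62 and 37 counts, few beside those of TIMP2. Exons of MMP2 overlap AC007336.3 on the same strand, which had 0 counts. STAR's gene counting drops reads shared between genes, so these counts do not bound what TIMP2 or MMP2 may have lost.

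TIMP1 read 174, 173 and 177 CPM with the inhibitor and 58.5 to 70.1 CPM under DMSO. The treated libraries lay within 4 CPM of each other, and TIMP1 rose by 1.42 ± 0.09 log2 units (adjusted p = 3.10e-12). TIMP2 read 569, 562 and 642 CPM with the inhibitor and 399 to 437 CPM under DMSO. The groups did not overlap, and the log2 fold change was 0.49 ± 0.08 (adjusted p = 2.61e-05). TIMP3 read 19.7, 24.1 and 20.1 CPM with the inhibitor and 31.9 to 40.2 CPM under DMSO. It was lower in all treated libraries, with a log2 fold change of -0.70 ± 0.11 (adjusted p = 9.84e-06), so that the 3 inhibitor genes did not move in a single direction.

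**Figure D3:**
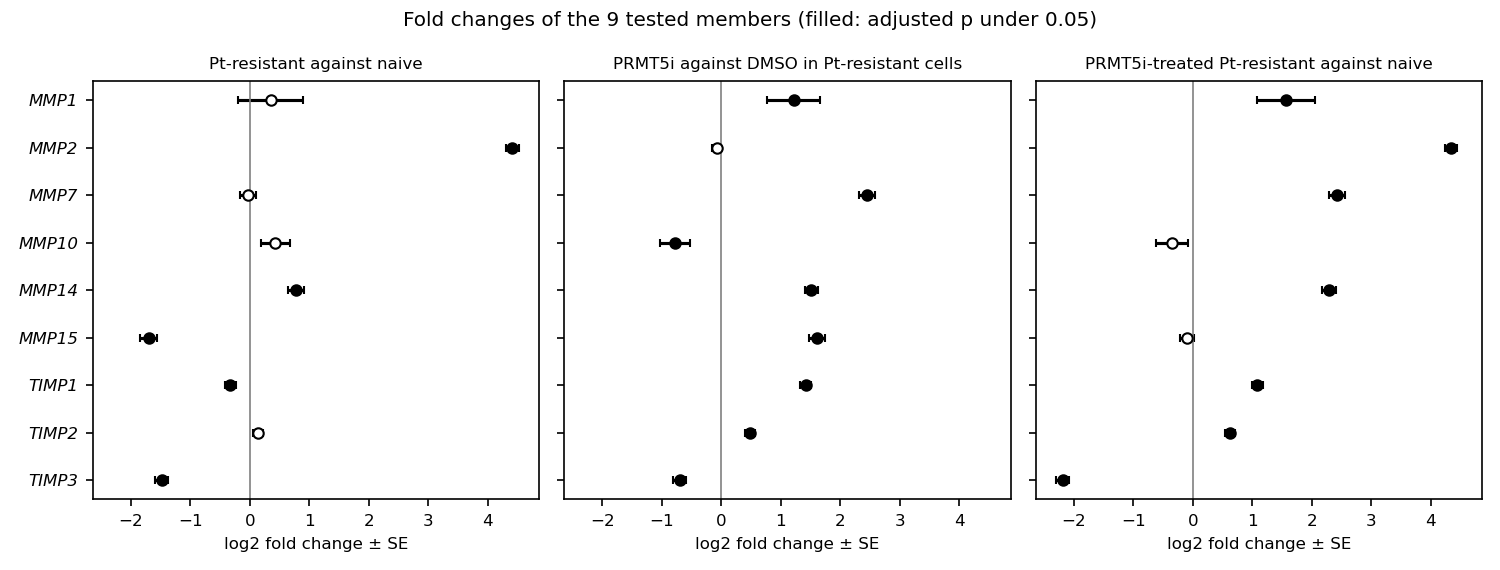
Log2 fold change with its standard error for the 9 tested members in the 3 comparisons, from a single edgeR fit over all 9 libraries. Filled points passed an adjusted p of 0.05. MMP2 lies at 4.42 between Pt-resistant and naive cells and at -0.07 with the inhibitor, and MMP7 at -0.03 and 2.46.

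PRMT5i-treated Pt-resistant cells were also set against naive cells, which asks where each gene ended relative to the parent line. In this comparison 6 members were higher and 1 was lower of 9 tested, where 63.4% of all genes were called (32.2% higher and 31.2% lower). At a change of at least 2-fold 5 members were higher and 1 was lower, against 10.7% and 9.15% of all genes (19.8% in all), and the libraries did not overlap for 7 of 9 members and 66.4% of all genes. MMP2 remained 20.3-fold higher, and MMP7, MMP14, TIMP1 and TIMP2 were higher by 2.42, 2.29, 1.09 and 0.62 on the log2 scale. MMP1 was higher by 1.56 ± 0.48 log2 units (adjusted p = 0.00707). TIMP3 was 4.56-fold lower, at 21.3 ± 2.4 CPM against 97.0 ± 13 CPM (SD, n = 3). MMP15 stood at 14.7 ± 1.7 CPM in treated and 15.7 ± 0.51 CPM in naive cells, and this difference did not pass (log2 fold change -0.09 ± 0.12, adjusted p = 0.514). MMP10 did not pass either (-0.35 ± 0.27, adjusted p = 0.261).

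The summed level of the 7 MMP genes per length was 43.5 ± 8.1 CPM per kb in naive, 55.6 ± 5.0 in Pt-resistant and 219 ± 31 in PRMT5i-treated cells (SD, n = 3). That of the 3 TIMP genes was 143 ± 13, 125 ± 8.1 and 223 ± 8.7 CPM per kb in the same order. The ratio of TIMP to MMP mRNA was 3.57, 3.88 and 2.61 in naive, 2.60, 2.28 and 1.92 in Pt-resistant and 0.974, 1.18 and 0.945 in PRMT5i-treated libraries. The ratio was thus lowest in treated cells, without overlap with the other groups. Naive and Pt-resistant libraries nearly touched, at 2.61 for the lowest naive and 2.60 for the highest Pt-resistant library. MMP7 made up 82.8% of the MMP sum in naive, 63.2% in Pt-resistant and 88.4% in treated cells. MMP2 made up 1.56%, 26.3% and 6.36% of it in that order. With MMP7 left out, the ratio was 19.1 ± 1.9 in naive, 6.12 ± 0.44 in Pt-resistant and 8.79 ± 0.082 in treated cells, so its order between Pt-resistant and treated cells turned. These sums, shares and ratios leave out MMP24, which stood at 12.5 ± 1.8, 8.20 ± 1.7 and 13.1 ± 0.36 CPM per kb in the same order. In naive cells the MMP members other than MMP7 summed to 7.49 ± 0.70 CPM per kb, less than MMP24 alone. No test is given for these sums, since their members were chosen with results of these data known.

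**Figure D4:**
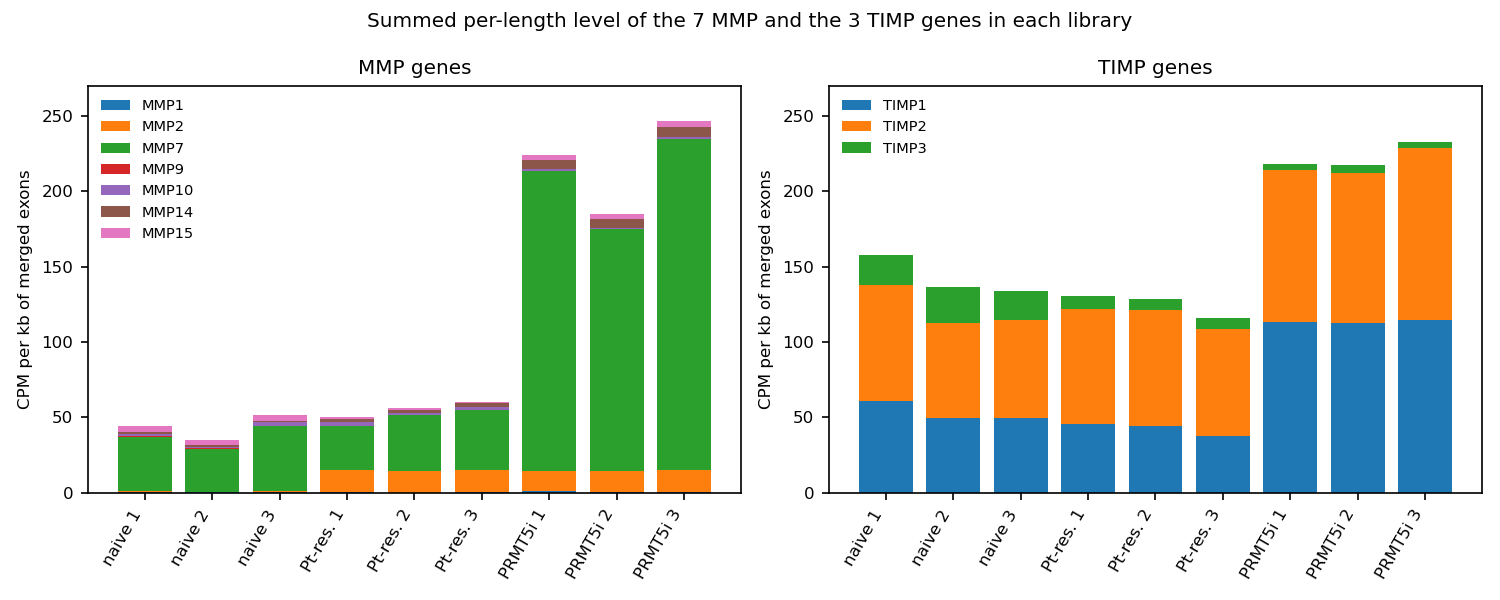
Stacked per-length levels, in CPM per kilobase of merged exons, of the 7 MMP genes (left) and the 3 TIMP genes (right) in each library. Each colour is a gene. MMP7 is the main part of the MMP sum in every group, MMP2 appears as a visible part in Pt-resistant and treated libraries, and the share of TIMP3 in the TIMP sum goes from 14.8% in naive to 6.03% in Pt-resistant and 2.08% in treated cells.

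Of 17 other genes of both families, 3 passed the filter on low counts, MMP17, MMP19 and MMP24, and TIMP4 and MMP26 had no count. MMP24, a further membrane-type enzyme, had a mean of 55.3 CPM in naive libraries, against 36.2 CPM in Pt-resistant ones and 57.8 CPM under the inhibitor. Per length it stood at 12.5 ± 1.8, 8.20 ± 1.7 and 13.1 ± 0.36 CPM per kb in that order (SD, n = 3). In naive cells MMP24 thus lay below MMP7 and above the other MMP members. Its log2 fold change was -0.61 ± 0.11 in Pt-resistant cells (adjusted p = 6.19e-05) and 0.68 ± 0.11 under the inhibitor (adjusted p = 1.53e-05). MMP17 and MMP19, named after their values were seen, had means near or below 1 CPM in every group. MMP17 changed by -1.12 between Pt-resistant and naive cells and by 1.19 with the inhibitor, and MMP19 rose by 2.05 in Pt-resistant cells and did not pass with the inhibitor.

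Genes that activate MMPs, hold them at the cell surface or restrain them formed a list of 18, of which 16 were tested. In Pt-resistant cells 6 of these were higher and 5 lower (68.8% called, near the 59.1% of all genes, with a median log2 fold change of -0.22). With the inhibitor 13 were higher and 3 lower (median 0.73), so that all 16 were called, against 62.4% of all genes. The hyaluronan receptor gene CD44, whose protein can dock MMP7, MMP9 and MMP14 at the cell surface, rose by 1.503 ± 0.11 log2 units in Pt-resistant cells. With the inhibitor CD44 rose from 26.6 to 148 CPM and PLAUR, the receptor of the plasminogen activator urokinase, from 9.47 to 59.3 CPM. FURIN, the convertase that activates proMMP14, named after its values were seen, went the other way from MMP14, with means of 78.3, 55.1 and 36.8 CPM from naive over Pt-resistant to treated cells, and was called lower in both comparisons. Between treated and naive cells the list had 11 higher and 1 lower, or 75.0% called against 63.4% of all genes.

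Among ADAM and ADAMTS genes, related metalloproteinases of which some are also held back by TIMP3, 14 of 18 were tested. In Pt-resistant cells 3 were higher and 6 lower, or 64.3%, near the 59.1% of all genes. With the inhibitor 11 were higher and 2 lower (median 0.85), or 92.9% against 62.4% of all genes. ADAMTS9 rose by 1.98 ± 0.20 in Pt-resistant cells and by 2.04 ± 0.13 with the inhibitor (log2 units), to 23.3 CPM. ADAMTS1 fell from 40.0 to 20.5 CPM in Pt-resistant cells, and ADAMTS5 rose from 5.73 to 13.9 CPM with the inhibitor. Of 16 tested matrix proteins of 22 listed, 2 were higher and 8 lower in Pt-resistant cells, or 62.5%, again near the 59.1% of all genes. With the inhibitor 12 were higher and 2 lower (median 0.98), or 87.5% against 62.4%. NID2, which encodes the basement membrane protein nidogen-2, had a log2 fold change of -5.61 ± 0.23 in Pt-resistant cells, from 16.4 to 0.321 CPM, and stood at 2.80 CPM with the inhibitor. NID1, a basement membrane gene, rose from 5.24 to 21.0 CPM with the inhibitor. Against naive cells, treated cells had 7 higher and 3 lower genes of the ADAM and ADAMTS list (71.4% called), and 11 higher and 4 lower of the matrix list (93.8%), where 63.4% of all genes were called. FN1, which encodes fibronectin, stood at 9.47 CPM in treated and 0.787 CPM in naive cells, and ADAMTS14 at 7.63 and 3.43 CPM.

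Of 15 genes for AP-1, ETS and NF-kB factors, families known to act at MMP promoters, all were tested. In Pt-resistant cells 8 were higher and 3 lower (median 0.40), or 73.3% against 59.1% of all genes. With the inhibitor 9 were higher and 5 lower (median 0.24), or 93.3% against 62.4%. Between treated and naive cells 9 were higher and 2 lower, or 73.3% against 63.4%. FOSL1, an AP-1 subunit gene, rose by 1.68 ± 0.20 in Pt-resistant cells, and ETV4, of the ETS family, changed by -1.84 ± 0.22 (log2 units). With the inhibitor ETV4 rose from 1.92 to 8.55 CPM and ETS1 from 39.7 to 161 CPM. The AP-1 subunits did not move together with the inhibitor: FOSL1, FOSL2 and JUNB were called higher, by 0.65, 0.63 and 0.24, while FOS, FOSB, JUN and JUND changed by -0.99, -0.80, -0.66 and -1.70 on the log2 scale, genes named after their values were seen.

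**Figure D5:**
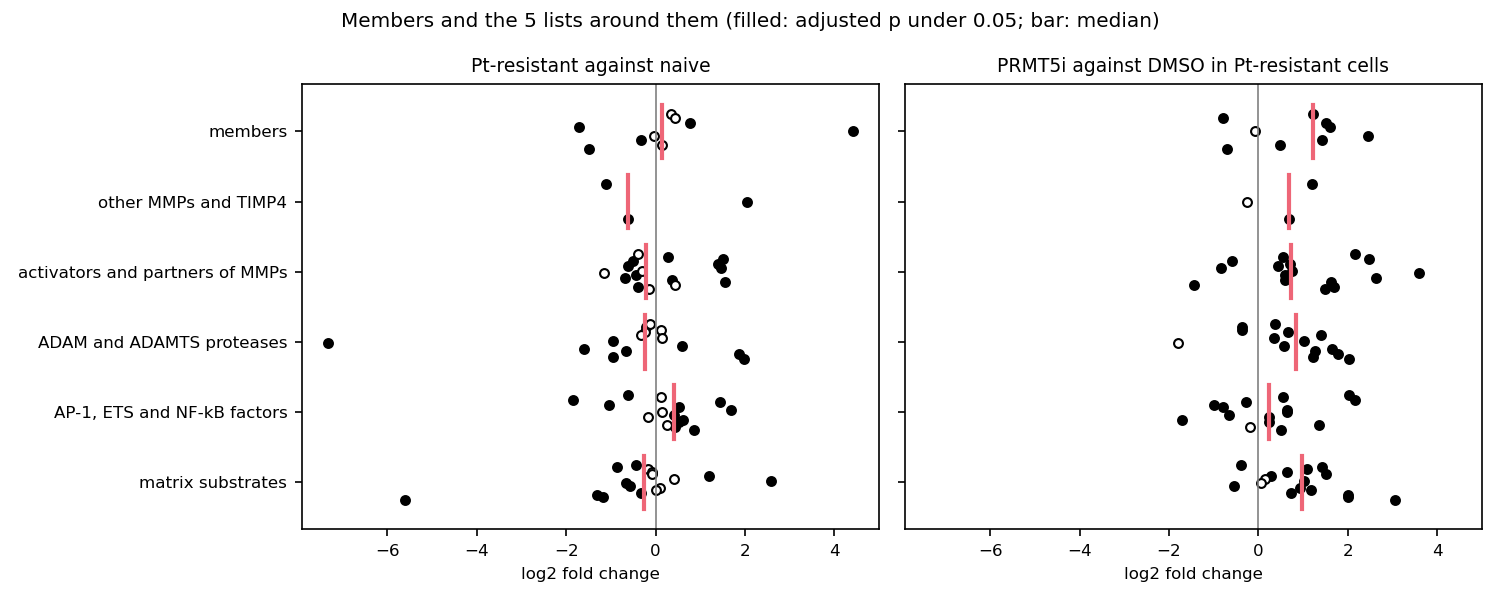
Log2 fold change of every tested gene among the members and the 5 lists around them, Pt-resistant against naive on the left and inhibitor against DMSO on the right. Points are genes, filled where the adjusted p was under 0.05, and the bar is the median. With the inhibitor the median lies at 1.22 for the members, 0.73 for activators and partners, 0.85 for ADAM and ADAMTS genes and 0.98 for matrix substrates. The median of the members is the value of MMP1, which rested on few counts.

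The genes whose log2 CPM over the 9 libraries was most like that of a member were sought among 11133 genes that reached 5 CPM in a group. With only 3 groups many genes share a pattern, so that 100 to 420 genes correlated above 0.95 with each of the 7 members at that level, and the values are a description. Nearest to MMP2 was ZEB1, a transcription factor of the mesenchymal state (Pearson r = 0.999), followed by STEAP1 and by CDH2, which encodes N-cadherin (r = 0.997 and 0.996). Among the nearest to MMP7 were HERC5 and CAPG (r = 0.997 and 0.993). For MMP14 they included TMEM44 and CTSS, which encodes the protease cathepsin S, and for MMP15 they were IGFL1, CLIC3 and SEZ6L2. For TIMP1 they were RPA1, KLK7, which encodes a secreted serine protease, and DDX23, for TIMP2 they were NBDY, PMPCA and EVA1A, and for TIMP3 they were CALR, UBFD1 and HSP90B1, where CALR and HSP90B1 encode chaperones of the endoplasmic reticulum.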

How the data were processed

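RNA was read in 9 libraries of OVCAR4 cells, prepared with a directional kit. The authors checked reads with FastQC and counted genes with STAR, and DESeq2 is also in the submitters' processing notes. The deposited values are the authors' raw read counts for each gene. No source used here gives the genome build, annotation or strand column. STAR's gene counting drops reads that map to several places or to more than 1 gene. Symbols were matched by stable Ensembl ID, which named 61474 of 61487 genes, and exon lengths are from GENCODE 29.

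Counts were fitted in R 4.3.3 with edgeR 4.0.16 over all genes kept by filterByExpr (minimum count 10), 14630 in number, with TMM scaling, a quasi-likelihood fit over 3 groups and no covariate. Adjusted p-values are by Benjamini-Hochberg within each of 3 comparisons, with a threshold of 0.05, and SEs were derived from the log2 fold change and the root of its F statistic. Members, the 5 lists and the rule for named genes (list genes past the threshold with at least 5 CPM, the 2 with the largest change per list and comparison) were chosen with earlier results of these data known. Some genes that the rule names are not reported here. DESeq2 1.42.0, limma 3.58.1 (voom), other scalings and filters, fits on the groups compared, a replicate block and each library left out were alternatives. The fit was tested on simulated data. It recovered 71.6% to 74.6% of genes changed 1.5-fold and 95.2% to 98.4% of those changed 4-fold. False calls ran from 1.78% to 5.43% over the 3 comparisons, above 5% in those of Pt-resistant against naive cells and of inhibitor against DMSO. Correlations for likeness used log2 CPM with a prior count of 2. Replicate pairs differed by more than counting noise (chi-square per degree of freedom 5.60 to 12.5). Intervals cover counting error only.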

Additional observations from a re-analysis of the deposited data

How the results depend on the processing

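Of the fold changes of the 9 tested members in 3 comparisons, 449 values under an alternative kept their call or stayed uncalled, 5 lost the call, 2 gained it and no called one changed sign. The lost calls were those of MMP1 and MMP10 with the inhibitor and the gained ones those of MMP10 and TIMP2 between Pt-resistant and naive cells, given with the results. MMP1 was not tested with the filter at 1 CPM. With a minimum change of 2-fold, 1 member was higher in Pt-resistant than in naive cells and 0 were lower with the inhibitor. Leaving out each library in turn gave 1 to 2 members lower with the inhibitor, 1 without Pt-resistant replicate 1. The replicate number as a replicate block left the counts of members called at 2 higher and 3 lower in Pt-resistant cells and at 6 higher and 2 lower with the inhibitor, with no member's call changed. Deviations of same-numbered libraries from their group means correlated at -0.0758 to 0.0995 (Pearson, 9 pairs), none above 0.1, so the numbers were not taken as pairs. Still, 7 of 9 libraries correlated best with their own number, a hint from the data and not the design. Depth limits MMP1 and MMP9.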
